A study of Mus musculus with 6 samples.

Results

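The interleukin genes and the genes of their receptors were examined in mouse subcutaneous white adipose tissue (scWAT), the fat depot under the skin. Members were all genes whose symbol starts with Il and a digit, without the Ilf genes and without the antisense transcript *Il1bos*, which gave 82 of the 55401 genes in the count tables. Total RNA was sequenced from 3 control mice and 3 mice with adipocyte deletion of *Yap* and *Taz*, all male and 8 weeks old, kept at room temperature. The control mice carried floxed *Yap1* and *Taz* alleles without Cre (YT-FF, called WT in the sample labels), and the YT-AKO mice carried the same floxed alleles with *Adipoq*-Cre. Both floxed lines were on a mixed C57BL/6 and 129 background and the *Adipoq*-Cre line on C57BL/6. The *Adipoq* promoter is active in mature adipocytes, so the other cells of the depot kept both genes in this model, and a whole tissue library mixes all of them.

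Interleukins are secreted signals, made largely by immune and stromal cells, that act through receptors built from a ligand-binding chain and a shared signalling chain. The chain encoded by *Il2rg* serves the interleukin 2, 4, 7, 9, 15 and 21 receptors, gp130 (*Il6st*) serves the interleukin 6, 11 and 27 receptors, and *Il17ra* serves most receptors of the interleukin 17 family. In adipose tissue they are known from macrophages, lymphocytes, eosinophils and the inguinal lymph node that lies within the subcutaneous depot, and adipocytes and their progenitors carry several of the receptors.

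Before the results, the libraries were checked against their labels. Library totals ran from 17740987 to 21838493 counted fragments, and the TMM factors, which correct for the make-up of a library, ran from 1.07 to 1.16 in YT-FF and from 0.777 (YT-AKO 2) to 0.955 in YT-AKO. *Yap1* fell, with a log2 fold change of -0.98 (adjusted p = 0.0179 by the quasi-likelihood test of edgeR, adjusted after Benjamini-Hochberg over all tested genes, as for each adjusted p given here). *Wwtr1*, which encodes TAZ, was higher in every library labelled YT-AKO, with a log2 fold change of 0.89 (adjusted p = 0.0220, edgeR), against the label. Counts summed over all exons do not show whether the floxed exons are lost, so they do not settle the genotype, and every direction given here follows these labels. YT-AKO 1 stood apart in skeletal muscle markers, whose summed level was 2940.25 CPM (counts scaled to the library size, with TMM factors) against 109.7 to 438 CPM in the other 5 libraries. Adipocyte markers were abundant in all 6 libraries, at 9665 to 14319 CPM in YT-FF and 16742.5 to 28799 CPM in YT-AKO.

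Many interleukin ligands lay near or under the detection limit, and the highest members were receptor chains. Of the 82 members, 9 had no count in any library (*Il1f5*, *Il1f6*, *Il1f8*, *Il1rapl2*, *Il3*, *Il20*, *Il22*, *Il22ra1* and *Il31*). Another 22 (26.8%) had counts but too few for the test, and 51 (62.2%) were tested. A count of 0 allows a level of up to 3 counts, which is 0.128 to 0.177 CPM in these libraries and covers counting error only. *Il6*, the best known inflammatory interleukin of fat, was among the untested members, with 1, 0 and 5 counts in YT-FF against 0, 0 and 1 in YT-AKO. These are too few counts to compare the groups at this depth.

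Levels of different genes were compared in TPM, the transcript level per length of exon, scaled to the same total in every library. TPM takes no TMM factor, so a difference between the groups in TPM also carries the make-up of the libraries. In YT-FF the highest member was *Il2rg*, the common gamma chain, at 128 ± 24.5 TPM (mean ± SD, n = 3). *Il6st* followed at 110 ± 17.4 TPM and *Il21r*, the interleukin 21 receptor, at 98.7 ± 21.3 TPM. The libraries of these 3 neighbours overlapped, so their order is not set beyond the spread. Below them came *Il4ra* (80.6 ± 11.3 TPM), *Il27ra* (71.7 ± 20.6 TPM), *Il17rc* (68.4 ± 11.8 TPM), *Il10ra* (64.2 ± 6.72 TPM) and *Il11ra1* (61.0 ± 8.01 TPM), which also overlapped with their nearest neighbours. In YT-AKO the order began with *Il17rc* (84.5 ± 4.95 TPM), *Il11ra1* (79.1 ± 9.05 TPM) and *Il2rg* (76.9 ± 8.44 TPM), and *Il6st* stood at 43.5 ± 16.1 TPM. With TMM factors the log2 fold change was -0.02 for *Il2rg* and -0.71 for *Il6st*. Of the exon bases of *Il2rg*, 30.5% are shared with the annotated gene *Gm20489*, and fragments on them were left out of the counts.

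**Figure D1:**
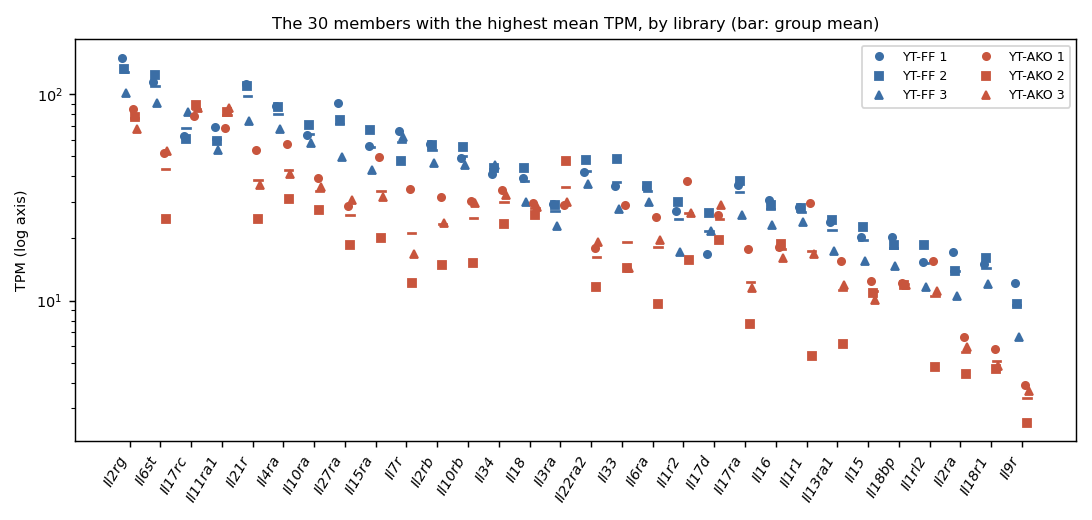
TPM on a log axis for the 30 members with the highest mean over the 6 libraries, with a point for each library (blue YT-FF, red YT-AKO) and a bar for each group mean. All are above 1 TPM, receptor chains lead, and *Il17rc* and *Il11ra1* are the highest members whose YT-AKO mean is above the YT-FF mean (84.5 against 68.4 and 79.1 against 61.0 TPM). TPM takes no TMM factor, so gaps between the groups also carry the make-up of the libraries.

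The 2 genotypes were compared to find which of these genes differed with the deletion. At an adjusted p under 0.05, 3 tested members (5.88%) were higher in YT-AKO, beside 12.6% of all 16807 tested genes, and 10 (19.6%) were lower, beside 9.01% of all genes. At an unadjusted p under 0.05 the counts were 6 (11.8%, beside 22.2% of all genes) and 17 (33.3%, beside 18.6%). In 19 members (37.3%) every YT-AKO library lay below every YT-FF library, beside 25.8% of all genes, and in 5 (9.8%) above, beside 25.7%. The median log2 fold change was -0.29 over the tested members and -0.02 over all tested genes, and 35 of 51 members (68.6%) were below 0. Scaling by library totals alone moved the median of all genes to -0.34 and that of the members to -0.60, with 41 of 51 (80.4%) below 0. A scale factor moves all genes nearly alike, so the gap between the medians (-0.27 with TMM and -0.26 without) could hardly change. Over the other settings the gap ran from -0.48 (without YT-AKO 1) to -0.14 (no filter on low counts). In bulk tissue, fewer cells of a type and less RNA per cell cannot be told apart.

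The number of calls depended on the libraries included. All 13 kept their sign in every alternative that tested them, but without YT-FF 1 or YT-FF 2 no member passed (5 higher and 10 lower, and 5 higher and 13 lower, at an unadjusted p under 0.05 in edgeR). Hardly any gene passed there, with 0 of all 17183 tested genes without YT-FF 1, and 0 higher and 2 lower of 17140 without YT-FF 2. Without YT-FF 3 there were 0 members higher and 1 lower (*Il27ra*), beside 4.03% and 3.02% of all genes. Without YT-AKO 1 there were 4 and 6 (12.7% and 8.24% of all genes), without YT-AKO 2 there were 6 and 12 (16.9% and 14%), and without YT-AKO 3 there were 3 and 3 (10.2% and 5.12%). DESeq2 called 5 members higher and 13 lower, beside 18.1% and 14.3% of all genes, and these 18 held all 13 calls of edgeR plus *Il1r2*, *Il3ra*, *Il2ra*, *Il7r* and *Il17rb*. Across all tested genes, which are not independent of each other, log2 fold change went with gene length (Spearman's rho -0.376, and -0.265 over the members). With library totals alone, 1 member was higher (*Il11ra1*, without *Il17rc* and *Il17d*) and 14 were lower, beside 6.77% and 16.8% of all genes. With a correction for length, 1 member (*Il11ra1*) was called higher and 5 (*Il17re*, *Il5ra*, *Il22ra2*, *Il27ra* and *Il21r*) lower, beside 9.59% and 4.14% of all genes.

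**Figure D2:**
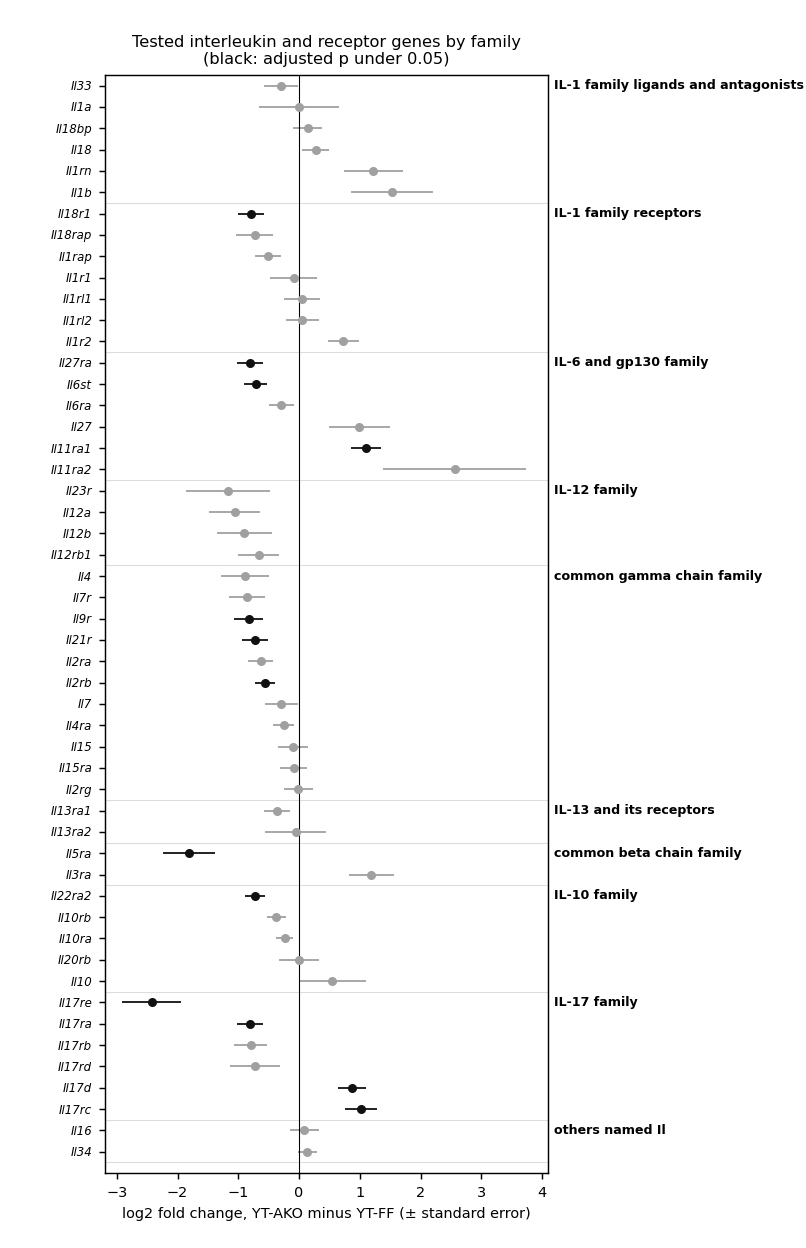
Log2 fold change (YT-AKO minus YT-FF, x axis) with its standard error for the 51 tested members, grouped by receptor family, with members at an adjusted p under 0.05 in black. *Il17re* lies farthest to the left at -2.43, the 11 common gamma chain genes and 4 interleukin 12 genes all lie below 0, and *Il11ra1*, *Il17rc* and *Il17d* are the 3 black points to the right.

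The interleukin 17 receptors held called members in both directions, on neighbouring genes. *Il17re*, the chain that binds interleukin 17C on epithelial and other barrier cells, had 145, 110 and 168 counts in YT-FF against 31, 8 and 23 in YT-AKO. The groups were separate, at 6.55 ± 1.94 CPM against 1.21 ± 0.677 CPM, a level 5.38-fold lower in YT-AKO (log2 fold change -2.43, standard error (SE) 0.486, adjusted p = 0.0213, edgeR). The gene lies on chromosome 6 at 113458484 to 113470758 of GRCm38, on the plus strand. *Il17rc* starts 668 bp after its end on the same strand (113471427 to 113483140) and encodes the chain that joins *Il17ra* to receive interleukins 17A and 17F. It had 43.6, 41.0 and 60.7 CPM in YT-FF and 75.6, 135 and 84.7 CPM in YT-AKO, so all YT-AKO libraries were higher, YT-AKO 2 by the most. Its log2 fold change was 1.02 (SE 0.264, adjusted p = 0.0350, edgeR) and, with the length correction, 0.87 (adjusted p = 0.0587). In TPM the groups overlapped, at 60.6 to 82.0 against 78.9 to 88.3.

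Since YAP and TAZ act on DNA through TEAD factors, the RefSeq sequence before the starts of the called members was searched for the TEAD core GGAATG on both strands. It was found in the windows of 250 bases before and 50 after a start (GRCm38.p6) of 14.7% of 32851 starts and in 11 of the 52 windows of tested members. These belong to 10 of the 39 tested members with a window, some of which have several starts, and 2 of them (*Il17re* and *Il11ra1*) are among the 9 called members with a window. The sites of these members and the stretch before *Il17rc*, where no core was found, are shown 5′ to 3′ on the plus strand with the core in capitals. The *Il17re* core starts 59 bases before the RefSeq start, and 250 of the 250 bases before that start are exonic in a longer GENCODE transcript, so 30 bases are shown (chr6:113458700-113458729). The *Il11ra1* core starts 78 bases before one of its RefSeq starts, which lies inside the annotated gene (chr4:41762060-41762308). The *Il17rc* stretch is the part of the gap to *Il17re* next to its first exon (chr6:113471205-113471426).
Il17re: ggctcaggagaaGGAATGtgaccaagcctg
Il11ra1: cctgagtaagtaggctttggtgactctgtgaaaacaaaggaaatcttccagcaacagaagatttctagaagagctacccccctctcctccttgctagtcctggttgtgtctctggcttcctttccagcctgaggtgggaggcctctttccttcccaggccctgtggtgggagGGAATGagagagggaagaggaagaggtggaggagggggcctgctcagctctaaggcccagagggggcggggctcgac
Il17rc: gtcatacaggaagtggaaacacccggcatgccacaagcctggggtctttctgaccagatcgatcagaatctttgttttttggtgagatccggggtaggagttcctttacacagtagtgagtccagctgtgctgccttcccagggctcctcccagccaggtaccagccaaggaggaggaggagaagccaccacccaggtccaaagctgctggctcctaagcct
The 2 members with a core went in opposite directions. The STAT motif TTCNNNGAA was in 8.3% of all windows and in 5 of the 52 windows of tested members, those of *Il17d* and *Il18r1* among them, and GGGACTTTC, part of a site for NF-kB, was in 0.353% of all windows and 0 of 52. A match of letters is a description and not a bound site.

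*Il17ra*, the shared chain (chromosome 6, 120463247 to 120487559), had 82.2, 83.1 and 62.7 CPM in YT-FF and 55.2, 38.0 and 36.6 CPM in YT-AKO. All YT-AKO libraries were lower, with a log2 fold change of -0.81 (SE 0.213, adjusted p = 0.0361, edgeR), and the length correction took it to -0.43 (adjusted p = 0.141). *Il17d*, a ligand of the family (chromosome 14, 57524777 to 57543166), showed 131, 195 and 149 counts in YT-FF against 205, 243 and 231 in YT-AKO, or 7.28 ± 1.53 against 13.3 ± 1.24 CPM. Its log2 fold change was 0.87 (SE 0.227, adjusted p = 0.0358, edgeR), but 0.48 with the length correction (adjusted p = 0.161), and in TPM the groups overlapped (16.8 to 26.6 against 19.7 to 29.1). *Il17rb*, a chain of the interleukin 25 receptor, and *Il17rd* were not called by edgeR, at 6.24 against 3.58 CPM and 8.17 against 4.94 CPM. Their groups did not overlap, which held for 25.8% of all tested genes in this direction, and DESeq2 called *Il17rb* lower. The ligands *Il17a*, *Il17b*, *Il17c*, *Il17f* and *Il25* had 1 to 33 counts in all 6 libraries together and were not tested, so the partner that *Il17re* is known to bind, *Il17c*, was seen in 24 counts in YT-FF and 9 in YT-AKO. In all, edgeR called 2 of the 6 tested members of the family higher and 2 lower and DESeq2 called 2 and 3, beside 12.6% and 9.01% of all genes with edgeR and 18.1% and 14.3% with DESeq2.

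**Figure D3:**
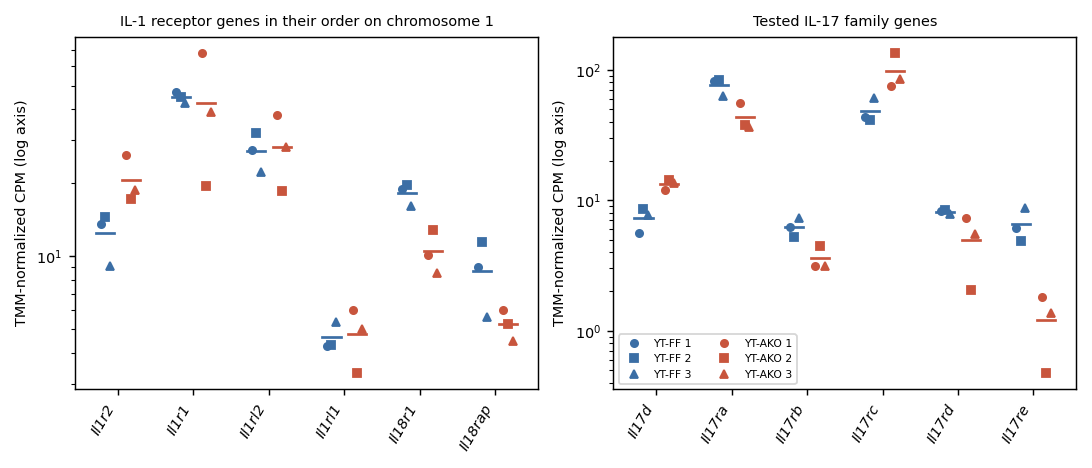
TMM-normalized CPM on a log axis for each library (blue YT-FF, red YT-AKO, bars for group means) of the interleukin 1 receptor genes in their order on chromosome 1 (left) and the tested interleukin 17 family (right). The groups are separate for *Il18r1* (18.2 against 10.5 CPM on average) and *Il1r2* on the left, and for all 6 genes on the right. Of these 6, *Il17d* and *Il17rc* are the 2 that are higher in YT-AKO. Of all tested genes 25.7% were separate above and 25.8% below.

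Called members of the gp130 family went in both directions. *Il6st*, which encodes gp130 itself (chromosome 13, 112464070 to 112510086), had 332, 348 and 278 CPM in YT-FF and 208, 158 and 218 CPM in YT-AKO. The groups did not overlap, and the log2 fold change was -0.71 (SE 0.191, adjusted p = 0.0376, edgeR). *Il6st* has 11099 bp of summed exons, and with the length correction its log2 fold change was -0.24 (adjusted p = 0.270). *Il27ra*, which pairs with gp130 to receive interleukin 27 on lymphocytes (chromosome 8, 84030294 to 84042589), had 82.2, 66.5 and 48.0 CPM in YT-FF and 36.0, 37.2 and 39.3 CPM in YT-AKO. It was lower in all YT-AKO libraries, which lay close together (log2 fold change -0.81, adjusted p = 0.0355, edgeR).

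*Il11ra1*, the interleukin 11 receptor alpha chain of stromal cells (chromosome 4, 41699989 to 41769474), went the other way from its partner gp130. It had 81.1, 67.2 and 66.9 CPM in YT-FF and 111, 210 and 142 CPM in YT-AKO, and all YT-AKO libraries were higher. The log2 fold change was 1.10 (SE 0.248, adjusted p = 0.0261, edgeR), or 1.24 with the length correction, while in TPM the groups overlapped slightly (54.0 to 69.7 against 68.9 to 86.2). Its near copies make these counts uncertain, since 46.3% of the 50-base words of its transcripts also occur in *Gm13305* and 15.8% in *Il11ra2*, and fragments that mapped to several places were left out. *Gm13305* itself had 0 counts in every YT-FF library and 0, 10 and 1 counts in YT-AKO. *Il11ra2*, all of whose words (100%) occur in *Gm13305*, had 0, 8 and 10 counts in YT-FF against 43, 42 and 2 in YT-AKO, with overlap and a log2 fold change of 2.56 that was not called (SE 1.18, adjusted p = 0.141). The ligand *Il11* had 3 counts in YT-FF and 13 in YT-AKO in all and was not tested. *Il6ra* (77.0 against 62.9 CPM) and *Il27* (0.714 against 1.43 CPM) were not called, *Il31ra* had 36 and 10 counts in all, and *Il31* none. The family had 1 of 6 tested members called higher and 2 lower by edgeR and by DESeq2, beside 12.6% and 9.01% of all genes with edgeR.

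The common gamma chain family, the growth and survival receptors of lymphocytes, lay on the lower side. All 11 tested members were below 0 with TMM and with DESeq2's factors, 10 with the length correction and 8 without YT-AKO 3. They were also below 0 with upper-quartile factors and library totals alone. These settings could hardly show otherwise, since they lowered the median of all genes from -0.02 to -0.06 and -0.34. *Il2rg*, *Il15ra* and *Il15* lay near 0 (-0.02, -0.09 and -0.10). The median of the 11 was -0.56, and 3 were called lower and none higher, beside 9.01% and 12.6% of all genes (0 higher and 5 lower at an unadjusted p under 0.05 in edgeR, and 0 and 5 with DESeq2). *Il21r*, the receptor of the helper T cell signal to B cells (chromosome 7, 125603429 to 125633570), had 97.2, 92.2 and 68.3 CPM in YT-FF and 64.3, 47.1 and 44.5 CPM in YT-AKO (log2 fold change -0.73, SE 0.211, adjusted p = 0.0459, edgeR). *Il9r*, the interleukin 9 receptor, had 369, 273 and 178 counts in YT-FF against 119, 122 and 112 in YT-AKO (log2 fold change -0.83, adjusted p = 0.0473, edgeR). *Il2rb*, which T and natural killer cells use for interleukins 2 and 15, had 64.2, 61.6 and 55.5 CPM in YT-FF and 48.8, 36.5 and 37.5 CPM in YT-AKO (log2 fold change -0.56, adjusted p = 0.04998, just under the threshold). For each of these 3 receptors the groups did not overlap, which held for 25.8% of all tested genes in this direction. With the length correction *Il9r* had an adjusted p of 0.0946 and *Il2rb* of 0.0708 (edgeR).

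*Il2rg*, the chain that all of these receptors share, had 93.5, 80.0 and 67.5 CPM in YT-FF and 72.7, 106 and 59.8 CPM in YT-AKO. The groups overlapped and the log2 fold change was -0.02 (SE 0.239, adjusted p = 0.965, edgeR), with its sign changing as libraries were left out. *Il4ra*, which receives interleukins 4 and 13, was at 127 ± 12.9 against 107 ± 16.4 CPM and was not called (log2 fold change -0.25, adjusted p = 0.306, edgeR). *Il21r* lies 23954 bp from *Il4ra* on chromosome 7. *Il2ra* (20.9 against 13.5 CPM) and *Il7r* (72.1 against 39.7 CPM) were called by DESeq2 and not by edgeR. *Il15ra*, 12096 bp from *Il2ra*, was at 64.6 against 60.7 CPM, and the ligands *Il4*, *Il7* and *Il15* at 1.42 against 0.764, 6.23 against 5.10 and 11.6 against 10.8 CPM, none of them called. *Il2*, *Il9* and *Il21* were not tested, with 34, 1 and 25 counts in all, and *Il21* had 21 of them in YT-FF and 4 in YT-AKO.

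**Figure D4:**
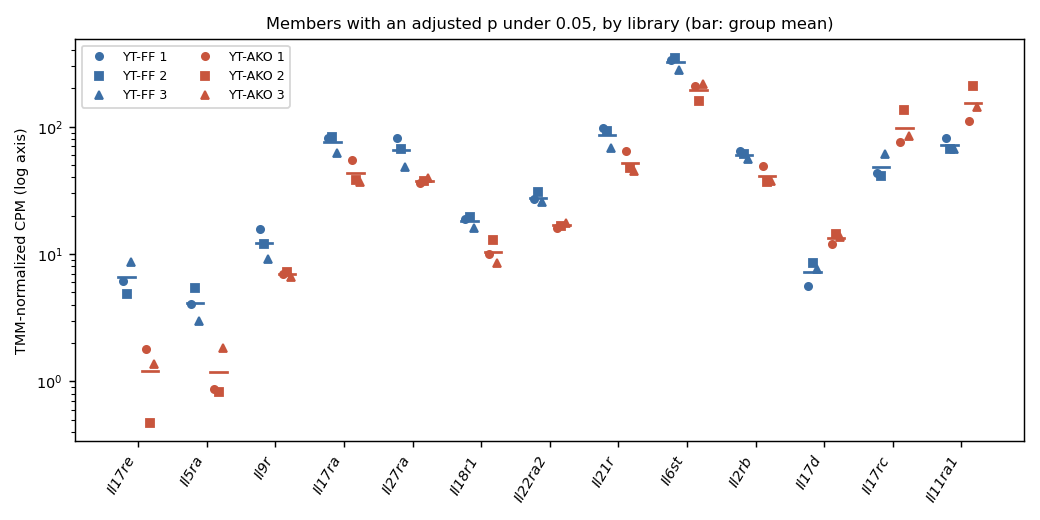
TMM-normalized CPM on a log axis of the 13 members with an adjusted p under 0.05, for each library (blue YT-FF, red YT-AKO) with bars for group means, ordered by log2 fold change. The groups are separate for every gene shown, with *Il17re* and *Il5ra* the widest apart (5.38-fold and 3.52-fold) and *Il17d*, *Il17rc* and *Il11ra1* at the right the 3 that were higher in YT-AKO. The genes were chosen by p-value in these same libraries, which favours separate groups. Of all tested genes 25.7% were separate above and 25.8% below.

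Of the 2 tested members of the common beta chain family, the receptors of eosinophil and myeloid growth signals, edgeR called 1 lower, beside 9.01% of all genes. *Il5ra*, the alpha chain of the interleukin 5 receptor on eosinophils and some B cells (chromosome 6, 106710357 to 106749037), showed 95, 123 and 58 counts in YT-FF against 15, 14 and 31 in YT-AKO. The groups were separate, with a level 3.52-fold lower in YT-AKO (log2 fold change -1.81, SE 0.433, adjusted p = 0.0292, edgeR), and the value was nearly the same with the length correction (-1.82). *Il3ra*, the interleukin 3 receptor alpha chain, had 22.6, 21.9 and 18.9 CPM in YT-FF and 31.0, 80.8 and 32.9 CPM in YT-AKO, where YT-AKO 2 stood far above the rest. Its log2 fold change was 1.19 (SE 0.367, adjusted p = 0.0532, edgeR), and without YT-AKO 2 it was 0.59 (adjusted p = 0.0128). *Il5* had 6 counts in YT-FF and 0 in YT-AKO, and *Il3* had none. The 4 eosinophil markers were too low to test, at 0.463 to 0.791 CPM in YT-FF and 0.523 to 3.83 CPM in YT-AKO when summed.

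Among the interleukin 1 genes, edgeR called 1 of 13 tested ligands, antagonists and receptors, which was lower, beside 12.6% of all genes higher and 9.01% lower. *Il18r1*, the interleukin 18 receptor chain of T and natural killer cells (chromosome 1, 40465552 to 40500854), showed 443, 445 and 311 counts in YT-FF against 173, 217 and 144 in YT-AKO, and was lower in all YT-AKO libraries (log2 fold change -0.80, SE 0.213, adjusted p = 0.0380, edgeR; adjusted p = 0.0977 with the length correction). It lies in a row of 6 receptor genes on chromosome 1, from *Il1r2* over *Il1r1*, *Il1rl2* and *Il1rl1* to *Il18r1* and *Il18rap*, and starts 136 bp after *Il1rl1*. None of the other 5 was called by edgeR. *Il18rap*, the second chain of the same receptor, was at 8.69 ± 2.92 against 5.24 ± 0.749 CPM, and *Il1rl1*, the interleukin 33 receptor, at 4.64 ± 0.619 against 4.77 ± 1.36 CPM. *Il1r2*, a decoy receptor for interleukin 1, had 13.6, 14.5 and 9.11 CPM in YT-FF and 25.9, 17.2 and 18.6 CPM in YT-AKO, separate between the groups, and was called by DESeq2. *Il1r1*, *Il1rl2* and *Il1rap* were at 44.9 against 42.3, 27.1 against 28.1 and 8.06 against 5.66 CPM, and *Il1r1* ranged from 19.5 CPM in YT-AKO 2 to 68.2 CPM in YT-AKO 1. *Il1rapl1* had 4 counts in all.

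Of the 6 tested interleukin 1 ligands and antagonists, none was called by edgeR or DESeq2, and 1 was higher and 0 lower at an unadjusted p under 0.05 in edgeR. *Il1b*, the inflammasome product, had 34, 20 and 14 counts in YT-FF against 103, 32 and 17 in YT-AKO. The groups overlapped and YT-AKO 1, the library with the muscle markers, was far above the rest, so that the log2 fold change of 1.53 (SE 0.675, adjusted p = 0.129, edgeR) was 0.51 without it. *Il1rn*, the receptor antagonist, had 44, 33 and 43 counts in YT-FF against 114, 30 and 76 in YT-AKO (log2 fold change 1.22, adjusted p = 0.102, edgeR), and without YT-AKO 2 it was 1.59 (adjusted p = 0.00852). *Il1a* (1.60 against 1.60 CPM), *Il18* (10.2 against 12.3 CPM), its binding protein *Il18bp* (14.2 against 15.7 CPM) and *Il33*, the alarmin of stromal cells (28.2 against 23.0 CPM), overlapped between the groups. *Il1f9* had 8 counts in all and *Il1f10* had 3.

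The interleukin 12 family, which steers T cells toward interferon and interleukin 17 production, had 4 tested members, all below 0 with a median of -0.98 and none called by edgeR or DESeq2 (0 higher and 1 lower at an unadjusted p under 0.05 in edgeR). *Il12a* had 4.99, 4.39 and 2.63 CPM in YT-FF and 2.62, 1.12 and 2.01 CPM in YT-AKO, where the highest YT-AKO library lay just under the lowest YT-FF library (log2 fold change -1.06, SE 0.414, adjusted p = 0.0955, edgeR). *Il12b*, the p40 chain shared by interleukins 12 and 23, was at 1.64 ± 0.586 against 0.880 ± 0.261 CPM (log2 fold change -0.90, adjusted p = 0.176) and *Il23r* at 0.709 ± 0.199 against 0.313 ± 0.221 CPM (log2 fold change -1.17, adjusted p = 0.235). *Il12rb1* was at 3.82 against 2.41 CPM. The untested *Il12rb2* had 52 counts in YT-FF and 7 in YT-AKO, with 40% of its exon bases shared with *Serbp1*, and *Il23a* had 4 and 17.

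In the interleukin 10 family 1 of 5 tested members, a decoy, was called lower, beside 9.01% of all genes. *Il22ra2*, a secreted receptor that binds interleukin 22 and keeps it from its cellular receptor (chromosome 10, 19621998 to 19634681), had 27.3, 30.5 and 25.4 CPM in YT-FF and 16.1, 16.5 and 17.7 CPM in YT-AKO. Both groups were tight and separate, with a log2 fold change of -0.73 (SE 0.158, adjusted p = 0.0246, edgeR) and of -0.92 with the length correction. The ligand *Il22* and the receptor chain *Il22ra1* had no count in any library. *Il10ra*, the interleukin 10 receptor of leukocytes, was at 59.0 ± 3.69 against 49.98 ± 4.52 CPM and was not called (log2 fold change -0.24, adjusted p = 0.249, edgeR), nor were *Il10rb* (50.1 against 38.7 CPM), *Il20rb* (2.30 against 2.29 CPM) and *Il10* (0.611 against 0.902 CPM). *Il19*, *Il20ra* and *Il24* had 5, 4 and 12 counts in all, and *Il20* none.

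The remaining members were not called. The interleukin 13 receptors *Il13ra1* and *Il13ra2* were at 21.4 against 16.7 and 2.81 against 2.71 CPM, with 0 of 2 at an unadjusted p under 0.05 in edgeR and 0 with DESeq2, and *Il13* had 9 counts in each group. *Il34*, a ligand of the macrophage receptor *Csf1r*, was at 22.5 ± 1.95 against 24.6 ± 1.52 CPM, and *Il16*, a signal that draws T cells, at 57.3 ± 6.09 against 60.8 ± 20.6 CPM. Overlapping genes share 17.4% of the exon bases of *Il16*, 14.9% of those of *Il10rb* and 9.51% of those of *Il4ra*, and fragments there were not counted for either gene. *Il4i1*, an amino acid oxidase named after its induction by interleukin 4, had 11 counts in all.

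Genes that work with the members but carry other names were examined as a list of 43, of which 42 were tested. edgeR called 0 higher and 2 lower, beside 12.6% and 9.01% of all genes, with 1 higher and 13 lower at an unadjusted p under 0.05 (beside 22.2% and 18.6%). DESeq2 called 1 higher and 6 lower, beside 18.1% and 14.3%. In edgeR, 0 partners passed without YT-FF 1 or YT-FF 2, 1 without YT-FF 3 or YT-AKO 3, 7 without YT-AKO 1 and 3 without YT-AKO 2. Both of the 2 belong to the gp130 branch. *Clcf1*, a ligand of the ciliary neurotrophic factor receptor that signals through gp130, had 62.4, 52.6 and 42.6 CPM in YT-FF and 26.6, 22.6 and 26.6 CPM in YT-AKO, which did not overlap (log2 fold change -1.06, SE 0.184, adjusted p = 0.0183, edgeR). *Lifr*, which pairs with gp130 for leukemia inhibitory factor, was at 127 ± 4.77 against 77.8 ± 10.6 CPM (log2 fold change -0.71, SE 0.157, adjusted p = 0.0255, edgeR). Among the 19 signal transducers (Jak, Stat, Irak and adaptor genes) 16 were below 0 with a median of -0.35, none called by edgeR but 9 lower and 0 higher at an unadjusted p under 0.05. Among the 8 feedback inhibitors and processing enzymes the median was 0.23, with none called and 0 higher and 1 lower at an unadjusted p.

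Markers of several cell types that carry these receptors were compared too. Of all tested genes 12.6% were called higher and 9.01% lower (edgeR), so a single call in a short list does not describe its cell type. Of 5 tested lymph node stroma and follicle markers 2 (*Cr2* and *Fcer2a*) were called lower. Their summed level, 395 to 503 CPM in YT-FF against 225 to 261 CPM in YT-AKO, is set by *Cr2*, *Fcer2a* and *Cxcl13*. *Cxcl13* and *Madcam1* were not called (log2 fold changes -0.29 and -0.14, adjusted p = 0.339 and 0.710, edgeR). The chemokines *Ccl19* and *Ccl21a* of the same list lay on the other side. *Ccl19* was at 0.256, 0.308 and 2.37 CPM in YT-FF and 1.40, 31.0 and 0.473 CPM in YT-AKO (log2 fold change 3.52, adjusted p = 0.127, edgeR). The untested *Ccl21a* was at 0.0426, 0.132 and 0.154 against 0.872, 8.49 and 0.236 CPM. Of 5 dendritic cell markers 1 was lower (*Flt3*), and the list summed to 81.6 to 94.3 against 64.9 to 71.6 CPM. The T cell list had 1 of 8 markers lower (*Cd4*) and overlapping sums, at 418 to 640 against 370.1 to 827 CPM, and the natural killer cell list had 0 of 5 called (0 higher and 2 lower at an unadjusted p in edgeR), at 30.3 to 39.1 against 26.9 to 33.6 CPM. On the other side, 3 of 7 macrophage markers (*C1qa*, *C1qb* and *C1qc*) were higher, and the list summed to 564 to 621 against 993 to 1364 CPM. The other macrophage markers, *Adgre1*, *Cd68*, *Csf1r* and *Mrc1*, were not called and overlapped between the groups, with log2 fold changes of 0.16 to 0.42. Of 5 mast cell markers 4 were higher, and the list summed to 23.1 to 27.6 against 57.3 to 95.8 CPM. Of 6 fibroblast and progenitor markers 1 was higher (*Pi16*) and 1 lower (*Dpp4*), and the list summed to 3309 to 4211 against 3667.5 to 6377 CPM. Of 5 endothelial markers 1 was lower (*Kdr*), and the list summed to 557 to 577 against 401 to 510.2 CPM. Neutrophil markers were at 13.5 to 27.4 against 15.7 to 34.9 CPM and mesothelial markers at 2.88 to 4.97 against 1.77 to 2.33 CPM. Epithelial markers were at 2.05 to 2.37 against 2.06 to 2.85 CPM. In these 3 lists none was called in edgeR (0 higher, and 1, 1 and 0 lower, at an unadjusted p). Only 1 of 4 mesothelial markers (*Lrrn4*) and 1 of 4 epithelial markers (*Epcam*) were tested. *Lrrn4*, at 3.61 against 1.76 CPM on average, made up nearly all of the mesothelial sum. In these lists 1 mesothelial and 1 epithelial marker were at 0 in all libraries. Their part in the receptor results was not tested.

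**Figure D5:**
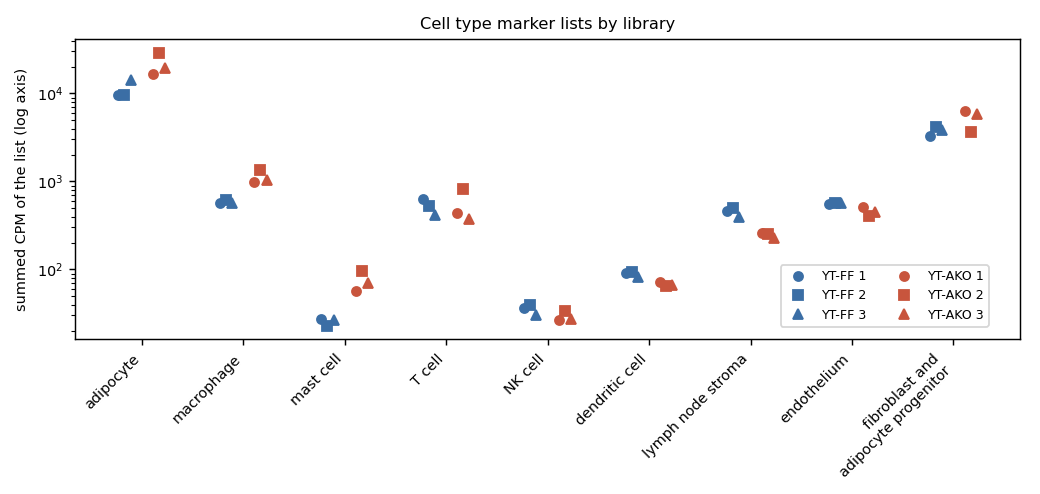
Summed TMM-normalized CPM (log axis) of cell type marker lists in each library (blue YT-FF, red YT-AKO). Sums of the dendritic cell list and of the list labelled lymph node stroma, which also holds follicle markers, are lower in all YT-AKO libraries. In the latter (225 to 261 against 395 to 503 CPM) *Cr2*, *Fcer2a* and *Cxcl13* set the sum, and only *Cr2* and *Fcer2a* were called lower. *Ccl19* and *Ccl21a* of this list lie on the other side. Macrophage, mast cell and adipocyte sums are higher in all, and T cell sums overlap. In the adipocyte list only *Lipe* and *Fabp4* were called, and *Adipoq*, *Plin1* and *Cidec* overlapped between the groups. In the macrophage list only *C1qa*, *C1qb* and *C1qc* were called, and *Adgre1*, *Cd68*, *Csf1r* and *Mrc1* overlapped between the groups.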

How the data were processed

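The scWAT libraries of 3 YT-FF and 3 YT-AKO males were grouped by their labelled genotype. The authors mapped paired ends with HISAT2 (mm10) and used featureCounts 2.0.1 to count fragments on GENCODE exons (no strand, per the file headers and methods), and the deposited values are raw counts per gene. Fragments with several alignments or several genes were left out. Symbols and coordinates came from GENCODE vM21 by gene identifier (55141 of 55401 matched).

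Counts were tested in R 4.3.3 with edgeR 4.0.16: filterByExpr (minimum count 10, minimum total 15), TMM factors, glmQLFit and glmQLFTest, with p-values of the 16807 tested genes adjusted after Benjamini-Hochberg. TPM used summed exon lengths. The test was checked on simulated counts. Alternatives were DESeq2 1.42.0, limma-voom (limma 3.58.1), upper-quartile factors, library totals alone, other filters on low counts, robust estimation, a replicate block, a spline correction for gene length (6 degrees of freedom), this correction within the block, and leaving out single libraries.

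Full statistics are given for members at an adjusted p under 0.05, the 5 largest positive and 5 largest negative log2 fold changes at a mean of at least 0.5 CPM, the 8 highest in TPM, *Il1b* and *Il6*. The members and lists were chosen with earlier results of these data known. The p-values measure the spread between 3 mice a group. Promoter windows came from RefSeq (GRCm38.p6) and matched 65 of 82 members. One list of cell type markers is not reported here.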

Additional observations from a re-analysis of the deposited data

How the results depend on the processing

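Members called higher and lower numbered 3 and 10, and 0 and 0 at an adjusted p under 0.01 with a log2 fold change beyond 1. They were 5 and 13 with DESeq2, 1 and 14 with library totals alone, and 1 and 5 with the length correction. The labels do not say whether the replicate numbers pair the mice. Correlations of same-numbered deviations were 0.114, -0.111 and -0.0903. YT-FF 1 correlated most with YT-AKO 1, and YT-FF 2 and 3 each more with another number. Deviations within 3 libraries sum to 0, so these values cannot settle it. A replicate block left 0 and 0 calls, as it did with the length correction added. At an unadjusted p under 0.05 in edgeR, 7 members were higher and 14 lower with the block, and 4 and 12 with the length correction added. Of all 16807 genes the block left 24 higher and 9 lower (0.143% and 0.0535%), and 46 and 19 (0.274% and 0.113%) with the length correction. With 1 library left out, 0 to 6 members were higher and 0 to 12 lower, 15 to 24 had an unadjusted p under 0.05 (23 with all libraries), and the median of the members was -0.53 to -0.23. Library totals alone moved that median to -0.60. Pathway partners called, 2 with all libraries, were 7 with DESeq2, 9 with library totals alone, 5 with at least 10 counts in every library, 0 with the replicate block, 0 with the block and the length correction, and 0 to 7 with 1 library left out. *Il2rg*, which was not called, changed sign without YT-FF 1 (0.10), YT-AKO 1 (0.06) or YT-AKO 3 (0.16), in a range of -0.28 to 0.16. A limit of 10 counts in every library left *Il17re* untested, since 1 library had 8 counts. The cause of the other shifts was not tested. Depth limited what could be compared, with 31 of 82 members too low to test.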
